A study of Mus musculus with 16 samples.

Results

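The subject is the effect that LysM-Cre had in common in young, old and TAU mice, measured on 16 arrays of mouse brain cells selected for CD11b and labelled microglia. All 8 arrays with LysM in their label were set against the 8 without it, in a single fit that gave each background (young, old and TAU) its own level. There were 6 groups. Young mice were SIRT1F/F or LysM-Cre/SIRT1F/F, the latter written LysM-Cre below, and old mice had the same genotypes, with 3 arrays per age and genotype. TAU and TAU/LysM mice gave 2 arrays per group. SIRT1F/F stands for Sirt1 with both copies floxed, which all 12 young and old samples share. For TAU/LysM the labels name no floxed allele, and no age is given for either TAU group. All mice are labelled as a mix of BL6 and 129/Sv. No group carries the Cre without another engineered allele, so the effect of the Cre insertion and that of the loss of SIRT1 cannot be told apart. The young, old and TAU comparisons use different arrays and share no controls.

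LysM-Cre mice carry the Cre recombinase in the Lyz2 gene, which encodes lysozyme M, the lysozyme of macrophages and neutrophils. Cre made from this gene cuts floxed DNA in monocytes, macrophages and granulocytes, and in microglia to a varying degree. SIRT1 is a protein deacetylase that uses NAD and acts on histones and on transcription factors, among them subunits of NF-kB. CD11b, the selected surface integrin, is carried by microglia and also by neutrophils, monocytes and other macrophages, so all of them can be in such a sample.

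The microglial genes P2ry12, Tmem119, Cx3cr1, Aif1, Siglech and Sall1 were above background on all 16 arrays, with the best probe of each between the 92.5th and the 99.7th percentile of level. Itgam, which encodes CD11b, was above background on all 16 arrays too. Arrays of the same group correlated at 0.984 to 0.994 over the tested probes. Xist, made from the inactive X chromosome, and Eif2s3y, on the Y chromosome, were both present on 11 arrays, while 5 arrays were near background for 1 of them. Those 5 were young LysM-Cre 2 and 3, old SIRT1F/F 2 and 3 and TAU/LysM 1. In samples of many cells, fewer cells of a type and less RNA per cell cannot be told apart.

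The shared fit called more genes higher than lower with LysM-Cre. Of 16344 probes tested, 229 were called (1.40%), 183 higher (1.12%) and 46 lower (0.281%), by limma at a Benjamini-Hochberg adjusted p under 0.05. They name 212 genes, 168 higher and 44 lower, and 7 of the probes have no gene name. At an unadjusted limma p under 0.05 stood 3188 of the 16344 probes, and counts at that threshold below are to be read beside this. With no filter on dim probes the same fit called 7 higher and 1 lower, and with median centring in place of quantile normalization 8 and 1. All 229 had the same sign in young, old and TAU samples, which their choice by the shared difference largely fixes, and 43.6% of all probes tested did. Of the 229, 11 were not above background on any array of 1 side and passed the filter through the other side, so they had to differ. The higher probes had a median difference of 0.54 on the log2 scale (0.22 to 3.16), and the lower ones of -0.32 (-0.21 to -0.63). The LysM arrays and the others did not overlap in any background for 54 of the higher and 22 of the lower probes. Over all probes this held for 0.514% in the higher and 0.367% in the lower direction. The larger share among the called probes also follows in part from their choice by the shared difference. None of the 229 differed in effect between the backgrounds at an adjusted p under 0.05, and 7 did at an unadjusted p under 0.05. The shared fit counts such a difference as spread, so probes with one were less likely to be called.

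Most of these calls lay at the edge of the threshold, and single arrays decided them. At the same adjusted p of 0.0471 stood 176 of the 229, while the last probe inside the threshold was Gm3696 (-0.59, adjusted p = 0.05) and the first outside it Ngp (0.62, adjusted p = 0.0509). Without young SIRT1F/F 1, 2 or 3 the same fit called 501, 7 and 11 probes, and without young LysM-Cre 1, 2 or 3 it called 7, 472 and 10. Without old SIRT1F/F 1, 2 or 3 it called 14, 173 and 8, and without old LysM-Cre 1, 2 or 3 it called 8, 14 and 7. Without TAU 1 or 2 it called 8 and 10, and without TAU/LysM 1 or 2 it called 11 and 7. Of the 229 probes, 216 were called in at most 4 of these 16 fits, and 7 in all 16. Those 7 probes name Lyz1 (on 2 probes), F10, Ccl24, Plk2 and Kmt5a, all higher, and Tceal1, which was lower. They are described first.

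**Figure D1:**
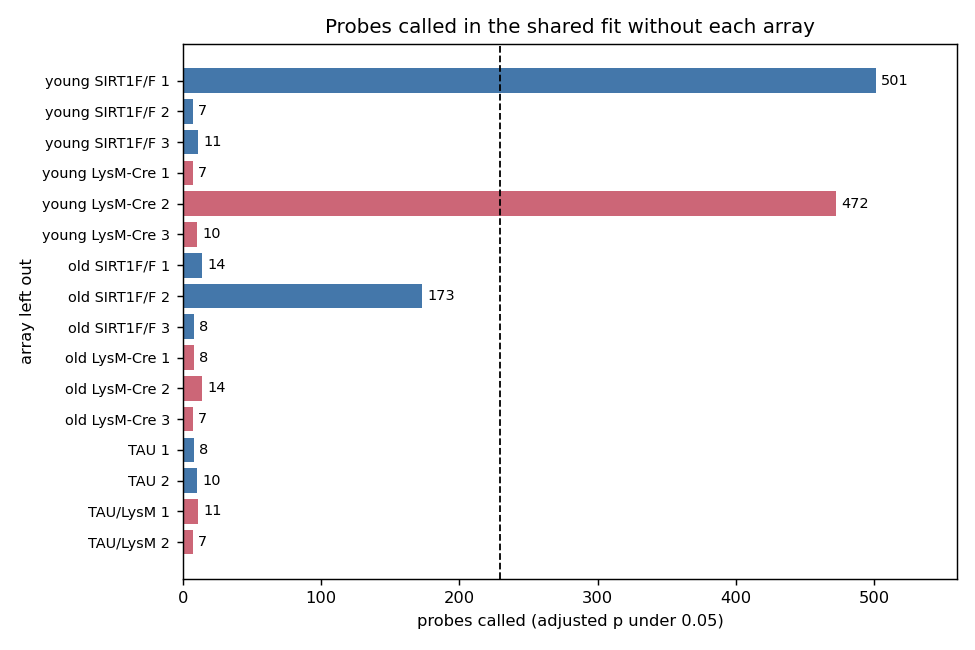
Number of probes called in the shared fit (horizontal axis) when the array named on the vertical axis was left out, with red bars for LysM arrays, blue bars for the others and a dashed line at the 229 probes called with all 16 arrays. The count falls to between 7 and 14 for 13 of the arrays and rises to 501 and 472 without young SIRT1F/F 1 and young LysM-Cre 2.

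Lyz1, the second mouse lysozyme gene and known from the mouse intestine, had the largest difference of any called gene. On its first probe by p it lay at 10.47, 9.34 and 8.79 (normalized log2 level) in young SIRT1F/F and at 11.64, 11.58 and 11.08 in young LysM-Cre. It lay at 7.62, 7.63 and 7.79 in old SIRT1F/F against 10.44, 11.13 and 10.52 in old LysM-Cre, and at 7.68 and 7.84 in TAU against 11.20 and 11.06 in TAU/LysM. No group of LysM arrays overlapped with its own controls, and young SIRT1F/F 1 stood closest to the LysM arrays. The shared difference was 2.69 ± 0.24 (SE, 8 against 8 arrays, limma adjusted p = 0.000141), with 1.90, 3.02 and 3.37 in young, old and TAU samples. A further probe gave 3.16 ± 0.31 (adjusted p = 0.00019), with 2.04, 3.73 and 3.98. The third Lyz1 probe differed by -0.04 ± 0.04 (adjusted p = 0.707). It read 36401 to 45044 in raw intensity on all arrays, close to the brightest values of the arrays (42456 to 49192), where differences can be compressed. Lyz1 and Lyz2 are close copies, and which of them each probe reads was not tested.

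Lyz2 itself, the gene that holds the Cre, was called lower on 1 of its 3 probes, at the edge of the threshold. That probe lay at 15.17, 14.89 and 14.94 in young SIRT1F/F against 14.60, 14.71 and 14.55 in young LysM-Cre, at 15.01, 14.89 and 14.86 in old SIRT1F/F against 14.73, 14.56 and 14.54, and at 14.99 and 15.03 in TAU against 14.93 and 14.92 in TAU/LysM. The arrays did not overlap in any background, and the TAU groups lay closest to each other. The shared difference was -0.28 ± 0.06 (adjusted p = 0.0471), with -0.38, -0.31 and -0.08 in young, old and TAU samples, and the call held in 2 of the 16 fits that left out an array. The probe read 23569 to 41096 in raw intensity, near the top of the scale, where differences can be compressed. The other Lyz2 probes gave -0.22 ± 0.07 (adjusted p = 0.13) and -0.40 ± 0.16 (adjusted p = 0.183). Among the 20 genes on each side of Lyz2 in the RefSeq gene order, 9 had a tested probe and limma called none on the brightest of its probes (1 at an unadjusted p under 0.05; 1.34% and 0.246% of all genes were called higher and lower on that probe), while Lyz1, which is among them, was called on its other probes.

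F10, coagulation factor X, which the liver secretes and macrophages can also make, rose with LysM-Cre at a low level. It lay at 6.68, 6.19 and 6.07 in young SIRT1F/F and at 7.51, 7.12 and 7.07 in young LysM-Cre. Old SIRT1F/F had 6.63, 6.86 and 6.80 against 7.43, 7.69 and 7.51, and TAU had 6.0 on both arrays against 6.93 and 7.14. The arrays separated in every background. The shared difference was 0.90 ± 0.09 (adjusted p = 0.00037), with 0.92, 0.78 and 1.04 in young, old and TAU samples. F10 was not well above background on either TAU array, which gives at least 1.66-fold there, and was above background on 1 of the 3 young SIRT1F/F arrays.

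Ccl24, a chemokine that attracts eosinophils and is made by alternatively activated and border macrophages, rose too. It lay at 8.82, 8.87 and 9.09 in young SIRT1F/F against 9.61, 9.46 and 9.85 in young LysM-Cre, at 9.34, 8.99 and 8.99 in old SIRT1F/F against 9.81, 9.61 and 9.64, and at 9.63 and 9.46 in TAU against 10.30 and 10.38. Every LysM array lay above every control array of its background. The shared difference was 0.68 ± 0.08 (adjusted p = 0.000721), with 0.71, 0.58 and 0.80. Of the 17 border-associated macrophage genes tested, Ccl24 was the only member called (1.34% of all genes were called higher), and the list's median difference was 0.26. In every background 12 of the 17 were above 0 and 0 below, against 22.8% and 20.4% of all genes. At an unadjusted limma p under 0.05 stood 11 of the 17, beside 3188 of all 16344 probes.

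Plk2, a polo-like kinase induced by stress and by synaptic activity, had nearly equal differences in the 3 backgrounds although its level differed between them. Its level was 10.38, 10.22 and 10.03 in young SIRT1F/F against 10.84, 10.59 and 10.61 in young LysM-Cre, 9.33, 9.46 and 9.35 in old SIRT1F/F against 9.94, 9.84 and 9.92, and 10.65 and 10.34 in TAU against 10.90 and 11.12. The shared difference was 0.50 ± 0.07 (adjusted p = 0.00483), with 0.47, 0.52 and 0.51. Kmt5a, a histone methyltransferase needed in the cell cycle, lay at 8.23 to 8.49 on the 8 arrays without LysM and at 8.71 to 9.0 on the 8 with it. Its groups thus separated over all arrays at once, with a shared difference of 0.41 ± 0.06 (adjusted p = 0.00483). Its other 2 probes gave 0.29 ± 0.07 (adjusted p = 0.0599) and 0.14 ± 0.11 (adjusted p = 0.499).

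Tceal1, an X-linked gene of the transcription elongation factor A-like family, was the lower gene with the smallest p. It lay at 10.08, 10.13 and 10.03 in young SIRT1F/F against 9.70, 9.92 and 9.87 in young LysM-Cre, at 10.18, 10.20 and 10.33 in old SIRT1F/F against 9.78, 9.66 and 9.70, and at 10.31 and 10.15 in TAU against 9.68 and 9.50. No LysM array reached the lowest of the other arrays, 10.03. The shared difference was -0.45 ± 0.07 (adjusted p = 0.0126), with -0.25, -0.52 and -0.64, and its highest adjusted p without any 1 array was 0.0444. A further Tceal1 probe gave -0.32 ± 0.08 (adjusted p = 0.0527). When the 5 arrays with Xist or Eif2s3y near background were left out, the differences of the 7 probes were 2.81 and 3.44 (Lyz1), 1.08 (F10), 0.61 (Ccl24), 0.61 (Plk2), 0.46 (Kmt5a) and -0.52 (Tceal1), and those of Lyz1 and F10 were still called (adjusted p = 0.0264 each).

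**Figure D2:**
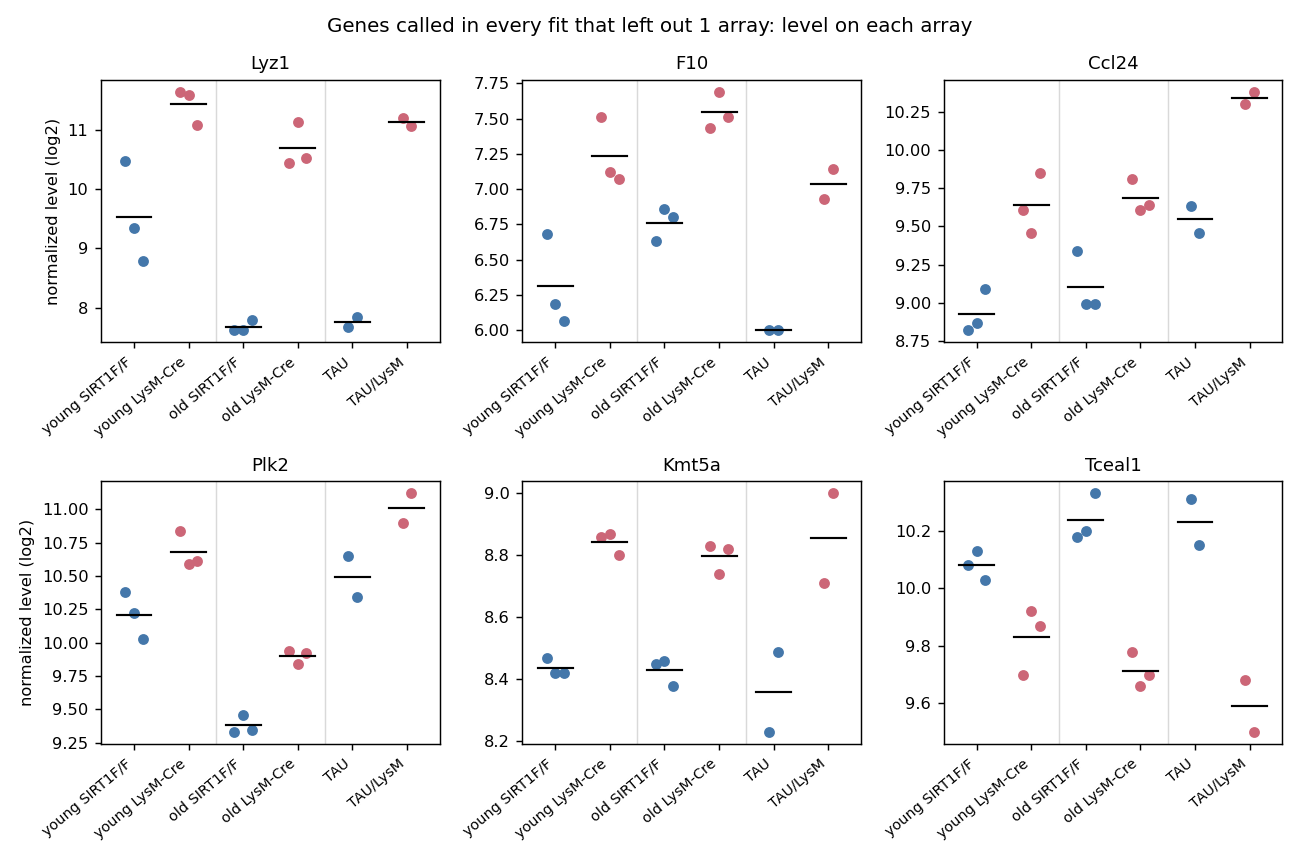
Normalized level (log2, vertical axis) of the 6 genes called in every fit that left out an array, on each of the 16 arrays by group, with red points for LysM arrays, blue points for the others and a line at each group mean. LysM arrays lie above their own controls in every background for Lyz1, F10, Ccl24, Plk2 and Kmt5a and below them for Tceal1.

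The next genes by p held in fewer of these fits. Nr4a2, an orphan nuclear receptor induced early by many stimuli, rose by 0.54 ± 0.09 (adjusted p = 0.0277), from 7.43 to 8.08 on the arrays without LysM to 8.0 to 8.42 on those with it. Ffar2, a receptor for short-chain fatty acids found on neutrophils, rose by 0.66 ± 0.11 (adjusted p = 0.0315). Got1, the cytosolic aspartate aminotransferase, rose by 0.44 ± 0.08, and Nfil3, a transcription factor that opposes clock activators and limits interleukin genes, by 0.48 ± 0.08 (adjusted p = 0.04 each). These were called in 8, 6, 6 and 5 of the 16 fits. Stfa1, a stefin that inhibits cysteine proteases, rose by 1.21 ± 0.22, Stat4, which carries interleukin signals, by 0.60 ± 0.11, and Ccdc117 by 0.44 ± 0.08 (adjusted p = 0.047 each). At an adjusted p of 0.0471 were Pilrb1, Arid5a, Clec4e, Sema4a, AA467197 and Cd79a, with differences from 0.44 to 0.83. Clec4e, a receptor for microbial glycolipids, was called on both of its probes, by 0.70 and 0.69.

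The lower genes had smaller differences. Slc25a16, a mitochondrial carrier, fell by 0.32 ± 0.05 (adjusted p = 0.0277), from 9.63 to 9.92 on the arrays without LysM to 9.37 to 9.57 on the LysM arrays, and was called in 7 of the 16 fits. Cibar1, Map4, a microtubule-associated protein, Smim15, Smim8, Cetn3, a centrin, Kifap3, a kinesin-associated protein, and Cttnbp2nl had differences of -0.25 to -0.48 at an adjusted p of 0.0471. Of these, Cibar1, Kifap3, Smim8 and Cttnbp2nl have further probes that were not called, with differences of -0.14 to -0.27. Epm2a, Nrros and Ppm1f were called on dim probes that were not above background on any LysM array and so passed the filter only through the other arrays. These have a bound of at least 1.02-fold for Nrros and for Ppm1f and no fold for Epm2a. The bright probes of Nrros (0.07) and Ppm1f (-0.13) were not called.

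**Figure D3:**
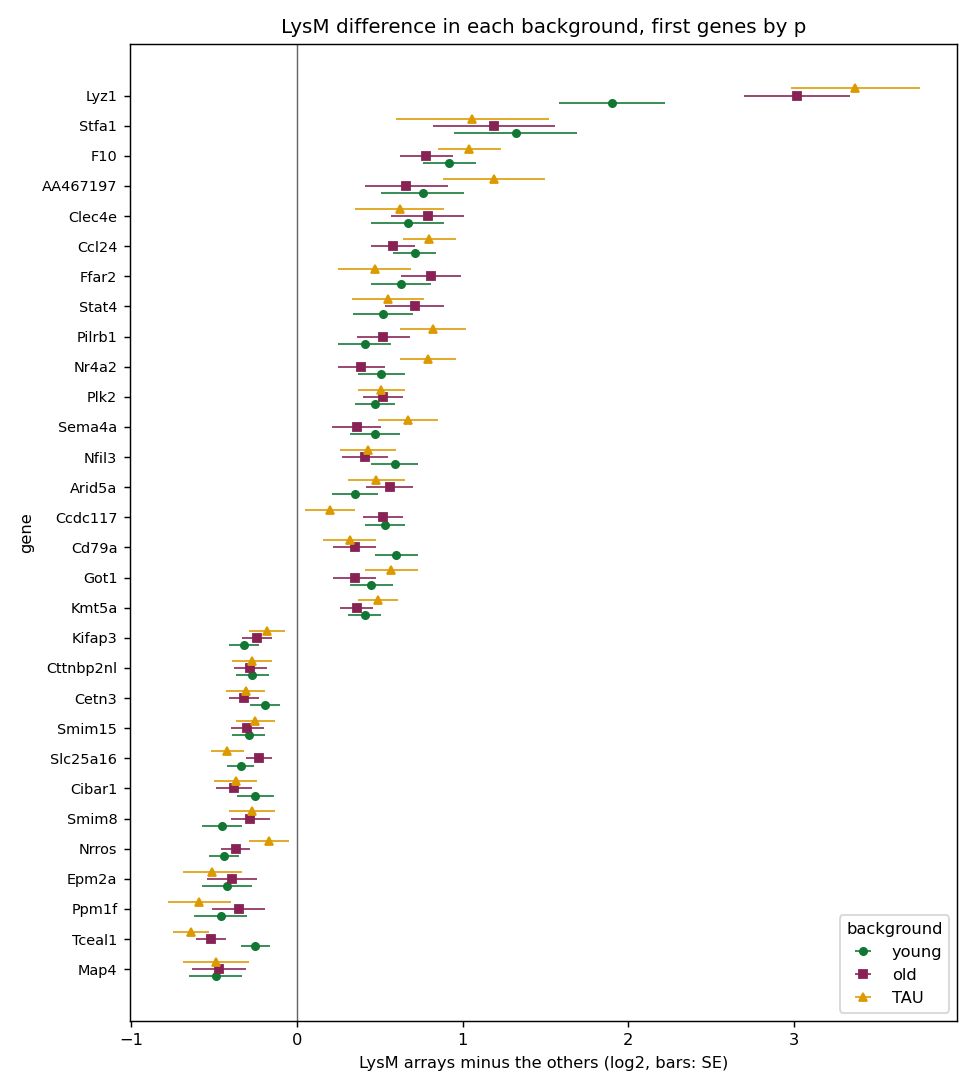
LysM difference (log2, horizontal axis, with SE bars) in young, old and TAU samples for the 18 higher and 12 lower genes of smallest p, each on the probe that was called. The common sign of the 30 genes follows from their choice by the shared fit, and Lyz1 alone exceeds 1.5.

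Each background was also held out in turn, so that its difference was not used to choose the genes. Old and TAU samples alone called 15 probes (0.0918%), and all 15 had the same sign in the young samples, against 65.4% of all probes. Besides Lyz1, F10, Ccl24 and Tceal1 they included Il10, the gene of an anti-inflammatory cytokine (0.78 in the fit and 0.70 in young), the potassium channel gene Kcnk5 (0.90 and 0.57) and Ifitm6 (0.89 and 0.71). Young and old samples alone called 6 probes (0.0367%), those of Lyz1, F10, Kmt5a, Ccl24 and Plk2, and all 6 had the same sign in TAU samples (61.8% of all probes). Young and TAU samples alone called 0 by limma, with 2218 probes at an unadjusted p under 0.05 and a smallest adjusted p of 0.0738, and 65.3% of all probes had the same sign there as in old samples. Within a single background, limma called 0 of the tested probes in young (1297 at an unadjusted p under 0.05), 3 in old (0.0184%) and 242 in TAU samples (1.48%).

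Genes of neutrophils were higher with LysM-Cre in all 3 backgrounds. The list held granule proteins, proteases and recruitment receptors, and 8 of its 24 tested members rose (1.34% of all genes did). Its median difference was 0.66, against 0 over all genes, with medians of 0.68, 0.65 and 0.78 in young, old and TAU samples. In all 3 backgrounds 23 of the 24 were above 0, against 22.8% of all genes. Like the other lists, this one was chosen with earlier results of these data known. Its members also moved together, so these shares describe the list and do not test it. The called members were Stfa1, Ifitm6, Cd177 (0.98 ± 0.21), a neutrophil surface protein, Prtn3 (0.91 ± 0.20), proteinase 3, Lcn2 (0.77 ± 0.17), lipocalin, Ltf (0.65 ± 0.15), lactoferrin, Mmp9 (0.74 ± 0.17), a gelatinase, and Il1r2 (0.61 ± 0.14), the decoy receptor of interleukin 1. Their adjusted p-values lay between 0.047 and 0.05, and each was called in 3 of the 16 fits without an array. The nearest members not called were Ngp, a granule protein, and Camp, a cathelicidin, at 0.62 ± 0.15 (adjusted p = 0.0509) and 0.59 ± 0.14 (adjusted p = 0.052).

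Stfa1 was 1 of the 2 list members, of 24, whose arrays separated in every background in the higher direction (0.610% of all genes did). It was at 7.87, 6.81 and 7.90 in young SIRT1F/F against 9.0, 8.09 and 9.46 in young LysM-Cre, at 8.03, 8.85 and 7.84 in old SIRT1F/F against 9.24, 9.55 and 9.51, and at 6.54 and 6.99 in TAU against 8.19 and 7.45. The groups did not overlap within a background, but the lowest LysM array, in TAU/LysM, lay below 5 of the 8 arrays without LysM. Ltf overlapped in young samples, at 13.90, 13.15 and 13.78 in SIRT1F/F against 14.17, 13.76 and 14.88 in LysM-Cre. It lay at 14.05, 14.36 and 13.93 against 14.79, 14.55 and 14.89 in old and at 13.09 and 13.58 against 14.05 and 13.94 in TAU samples, without overlap. The mean level of the list was 10.03 to 10.89 in young SIRT1F/F and 10.77 to 11.66 in young LysM-Cre, which overlap, 10.61 to 11.25 against 11.46 to 11.58 in old, and 9.75 to 10.31 against 10.64 to 10.78 in TAU samples. With this level as a covariate, an alternative chosen after the data were seen, limma called 0 probes, with 680 at an unadjusted p under 0.05 and a smallest adjusted p of 0.134. In that fit the differences of the genes called in every fit without an array were 2.63 and 2.99 (Lyz1), 0.81 (F10), 0.62 (Ccl24), 0.51 (Plk2), 0.37 (Kmt5a) and -0.40 (Tceal1). The level itself was higher on LysM arrays on average, without overlap in old and TAU samples, so as a covariate it takes up part of the LysM contrast. The first Lyz1 probe had 2.69 in the main fit and 2.63 here, while its limma adjusted p went from 0.000141 to 0.134. The count of 0 therefore does not show what the calls came from. The part of neutrophil RNA in the calls was not tested.

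The promoters of called neutrophil genes are shown because the group moved together. RefSeq windows of 250 bases before to 50 after the gene start (GRCm38.p6) matched 23 of the 24 tested members. A core of the C/EBP palindrome, TTGCNNAA on either strand, was in 8 of the 23 windows (34.8%) and in 10.8% of all 32851 windows. C/EBP factors drive granule genes during granulocyte development. The 4 called members with a match follow, 5′ to 3′ on the gene's strand with each match in capitals. Fcnb, a ficolin of granulocytes, was called on 1 of its 2 probes (0.77 ± 0.18). The windows are at chr16:36276898-36277197, plus strand, chr2:32387690-32387989, minus strand, chr9:111019042-111019341, plus strand, and chr2:28084829-28085128, minus strand.
Stfa1: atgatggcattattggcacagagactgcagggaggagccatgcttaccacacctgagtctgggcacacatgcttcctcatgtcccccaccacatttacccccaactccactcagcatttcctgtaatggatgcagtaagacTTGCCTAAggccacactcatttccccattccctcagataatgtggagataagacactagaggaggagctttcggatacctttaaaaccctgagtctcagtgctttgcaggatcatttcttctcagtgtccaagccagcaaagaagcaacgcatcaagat
Lcn2: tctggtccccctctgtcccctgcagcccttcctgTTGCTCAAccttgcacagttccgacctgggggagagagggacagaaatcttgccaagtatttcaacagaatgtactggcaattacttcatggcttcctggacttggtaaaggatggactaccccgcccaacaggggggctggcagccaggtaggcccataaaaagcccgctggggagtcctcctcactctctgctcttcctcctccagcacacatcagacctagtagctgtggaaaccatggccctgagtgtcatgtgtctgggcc
Ltf: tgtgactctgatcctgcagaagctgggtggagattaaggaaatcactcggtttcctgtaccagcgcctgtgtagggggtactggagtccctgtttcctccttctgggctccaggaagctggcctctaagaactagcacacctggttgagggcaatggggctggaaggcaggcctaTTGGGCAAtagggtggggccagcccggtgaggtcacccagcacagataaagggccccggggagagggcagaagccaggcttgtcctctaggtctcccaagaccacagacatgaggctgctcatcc
Fcnb: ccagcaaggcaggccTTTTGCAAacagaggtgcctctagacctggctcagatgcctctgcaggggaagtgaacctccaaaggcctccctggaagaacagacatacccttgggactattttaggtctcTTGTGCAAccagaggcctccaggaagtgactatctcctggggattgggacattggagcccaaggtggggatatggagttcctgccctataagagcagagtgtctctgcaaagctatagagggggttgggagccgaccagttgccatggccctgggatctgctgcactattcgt
The matches start at -109 in Stfa1, -216 in Lcn2, -75 in Ltf and at -235 and -123 in Fcnb, counted from the gene start. Of the other called members Mmp9 had no window here, and Ifitm6, Cd177, Prtn3 and Il1r2 had no match, which says only that these letters are not in the window.

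Some monocyte and B cell genes were also called higher. Of 13 monocyte genes tested 5 rose (1.34% of all genes did), F10, Clec4e, Hp (0.93 ± 0.21), haptoglobin, Plac8 (0.78 ± 0.18) and Lgals3 (0.43 ± 0.10), galectin 3, and 10 of the 13 were above 0 in every background (22.8% of all genes were). The list's mean level was 9.78 to 10.24 in young SIRT1F/F against 10.17 to 10.47 in young LysM-Cre, 10.04 to 10.41 against 10.63 to 10.75 in old, and 9.54 to 9.88 against 10.36 on both TAU/LysM arrays. Of 13 B cell genes 3 were called higher (1.34% of all genes were), Cd79a (0.44 ± 0.08), part of the B cell receptor, Pou2af1 (0.62 ± 0.14), a B cell coactivator, and Vpreb3. Vpreb3 was not above background on any array without LysM, so it passed the filter only through LysM arrays and had to differ, and gives at least 1.57-fold in young samples. The B cell list had a mean of 7.73 to 7.99 in young SIRT1F/F and of 8.24 to 8.49 in young LysM-Cre. It had 7.90 to 8.09 against 8.13 to 8.27 in old and 7.82 to 7.88 against 7.94 to 8.13 in TAU samples. The groups did not overlap in any background, and lay closest to each other in old and TAU samples. None of the 13 T and NK cell genes tested was called by limma (5 at an unadjusted p under 0.05, beside 3188 of all 16344 probes). Their median was 0.15.

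Some interferon-stimulated genes rose with LysM-Cre. Of 33 tested, 5 rose (1.34% of all genes did), namely Oas2 (0.96 ± 0.20) and Oas1g (0.70 ± 0.14), which make the activator of an antiviral nuclease, Irf7 (0.73 ± 0.16), a transcription factor of the interferon response, Sp100 (0.46 ± 0.10), a nuclear body protein, and Slfn2 (0.29 ± 0.06), all at an adjusted p of 0.0471. Each was called in 2 or 3 of the 16 fits without an array. Oasl2 was called on its dimmer probe only (0.60 ± 0.14). In every background 23 of the 33 were above 0 (22.8% of all genes were), and the list's median was 0.32, with 0.12, 0.31 and 0.63 in young, old and TAU samples. The median was largest in TAU samples, which had 2 arrays per group, but no member's effect differed between backgrounds by the test of that difference.

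Oas2 lay at 9.41, 8.48 and 8.84 in young SIRT1F/F against 9.92, 9.07 and 9.28 in young LysM-Cre, at 9.01, 9.25 and 8.23 in old SIRT1F/F against 9.79, 9.77 and 9.64, and at 8.45 and 8.89 in TAU against 10.21 and 10.59. The young groups overlapped, and the old and the TAU groups did not. Irf7 lay at 7.48, 7.11 and 7.21 in young SIRT1F/F against 8.10, 7.48 and 7.67 in young LysM-Cre, at 7.49, 7.88 and 7.12 in old SIRT1F/F against 7.87, 8.19 and 8.12, and at 7.18 and 7.78 in TAU against 8.53 and 9.17. Its LysM arrays did not lie clear of the controls in young or old samples.

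Interferon-stimulated genes are commonly bound by STAT and IRF factors at a repeated GAAA motif. The core searched, GAAA, any 2 bases and GAAA again on either strand, was in 14 of the 30 RefSeq windows of the tested members (46.7%, covering 13 of 23 genes) and in 3.44% of all windows. Of the called members with a window Oas1g alone had it, in 2 overlapping matches starting at -18 and -12 and shown in capitals (chr5:120887564-120887863, minus strand, GRCm38.p6, 5′ to 3′).
Oas1g: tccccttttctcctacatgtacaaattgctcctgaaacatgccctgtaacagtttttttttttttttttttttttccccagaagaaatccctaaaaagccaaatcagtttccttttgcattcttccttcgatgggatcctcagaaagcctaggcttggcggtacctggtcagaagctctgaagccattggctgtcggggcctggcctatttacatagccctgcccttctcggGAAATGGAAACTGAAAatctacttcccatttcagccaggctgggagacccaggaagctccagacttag
The windows of Irf7, Sp100, Slfn2 and Oasl2 did not hold these letters.

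**Figure D4:**
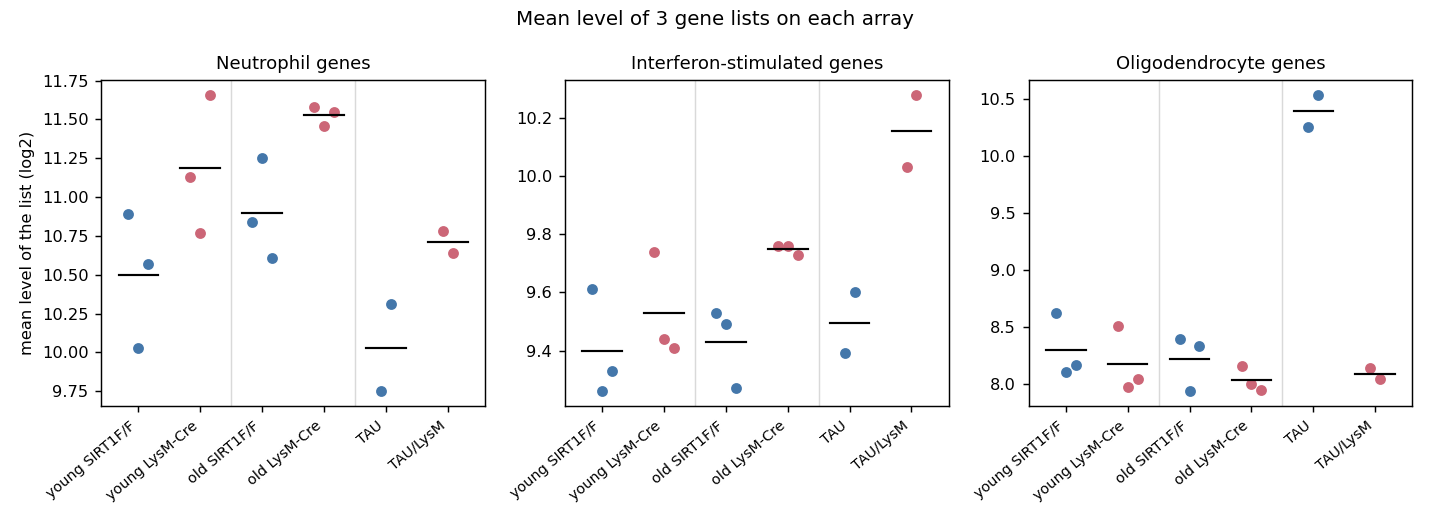
Mean normalized level (log2, vertical axis) of the neutrophil, interferon-stimulated and oligodendrocyte lists on each array by group, with red points for LysM arrays, blue points for the others and a line at each group mean. Neutrophil genes lie higher in all 3 LysM groups on average, interferon-stimulated genes most clearly in TAU/LysM, and oligodendrocyte genes at 10.26 and 10.54 on the TAU arrays alone.

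Cytokine genes that rose were of several kinds. Of 30 tested 5 were called, all higher (1.34% of all genes were), Ccl24, Il10 (0.75 ± 0.14), the neutrophil attractants Cxcl1 (0.94 ± 0.20) and Cxcl2 (0.44 ± 0.10), and Lif (0.42 ± 0.10), a cytokine of the interleukin 6 family. Cxcl1 lay at 11.34 to 11.73 on the arrays without LysM and at 11.81 to 13.72 on those with it, without overlap. Il10 lay at 10.36, 9.23 and 9.72 in young SIRT1F/F against 10.85, 10.42 and 10.14 in young LysM-Cre, at 7.97, 8.11 and 7.77 in old SIRT1F/F against 8.58, 8.59 and 8.61, and at 8.16 and 8.22 in TAU against 8.93 and 9.41. It overlapped in the young groups only.

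The gene named in the series' title, Il1b, was not called. Its difference was 0.14 ± 0.05 (adjusted p = 0.157), and it read 24477 to 35565 in raw intensity, near the top of the scale. In the IL-1 family and inflammasome list 3 of 23 members rose (1.34% of all genes did), Mefv (0.73 ± 0.14), the sensor pyrin, and 2 that restrain interleukin 1, Il1rn (0.52 ± 0.12), its receptor antagonist, and the decoy receptor Il1r2. One dim Il1rn probe gave 0.00 ± 0.14. The list's median was 0.01. Of 20 genes of alternative activation 4 rose, Ccl24, Il10, Il1rn and Arg2 (0.79 ± 0.16), the mitochondrial arginase, with a median of 0.19.

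Genes of resting microglia had a median just below 0, and limma called none of them. Of 28 homeostatic genes 13 were below 0 in every background (20.4% of all genes were), with a median of -0.07. Beside 3188 of all 16344 probes tested, 8 of the 28 stood at an unadjusted p under 0.05. The smallest p was that of P2ry12, the ADP receptor that guides microglial processes, at -0.35 ± 0.08 (adjusted p = 0.0515). Next were P2ry13 at -0.24 ± 0.06 and Mef2c, a microglial transcription factor, at -0.28 ± 0.07. P2ry12 lay at 13.85, 13.92 and 13.83 in young SIRT1F/F against 13.34, 13.67 and 13.51 in young LysM-Cre, at 13.66, 13.66 and 14.14 against 13.68, 13.70 and 13.37 in old, and at 13.73 and 13.60 against 13.08 and 13.24 in TAU samples. The old groups overlapped. Among 26 disease-associated microglia genes, which microglia switch on around plaques and dying cells, Axl (0.46 ± 0.10), a receptor for dying cells, and Lgals3 rose. Lyz2, the gene that holds the Cre, fell. Of all genes 1.34% were called higher and 0.246% lower, and the list's median was 0.08.

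Sirt1 was not called, at 0.05 ± 0.07 (adjusted p = 0.745). Its probe was not placed against the floxed exons here, so that level checks neither the labels nor the deletion. None of the 16 sirtuin and NAD enzyme genes tested was called by limma (6 at an unadjusted p under 0.05, beside 3188 of all 16344 probes). Bst1, an NAD-using surface enzyme, was nearest at 0.58 ± 0.14 (adjusted p = 0.0519). In lipid handling 2 of 23 genes rose on the brightest of their probes, and 3 were called on any probe. The 2 were the lipid droplet gene Plin2 (0.44 ± 0.10) and Srebf2 (0.43 ± 0.10), which drives sterol synthesis. On the brightest probes a single member was called higher among 19 mural and meningeal genes (Igfbp6, 0.75 ± 0.17, adjusted p = 0.0494), 15 clock genes (Nfil3), 21 immediate early genes (Nr4a2) and 30 lysosomal genes (Axl), beside 1.34% of all genes. On any probe 2 clock genes were called. In the other 18 lists, among them glycolysis, oxidative phosphorylation, p53 targets, NF-kB feedback, DNA methylation, cell cycle and both MHC classes, limma called no member on the brightest of its probes. Of their 294 genes 79 stood at an unadjusted p under 0.05, beside 3188 of all 16344 probes. These lists were not alike. At that threshold stood 3 of 32 oxidative phosphorylation genes, 9 of 20 cell cycle genes and 8 of 16 genes of MHC class I. Of the 20 cell cycle genes 13 were above 0 in every background and 1 below (22.8% and 20.4% of all genes).

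**Figure D5:**
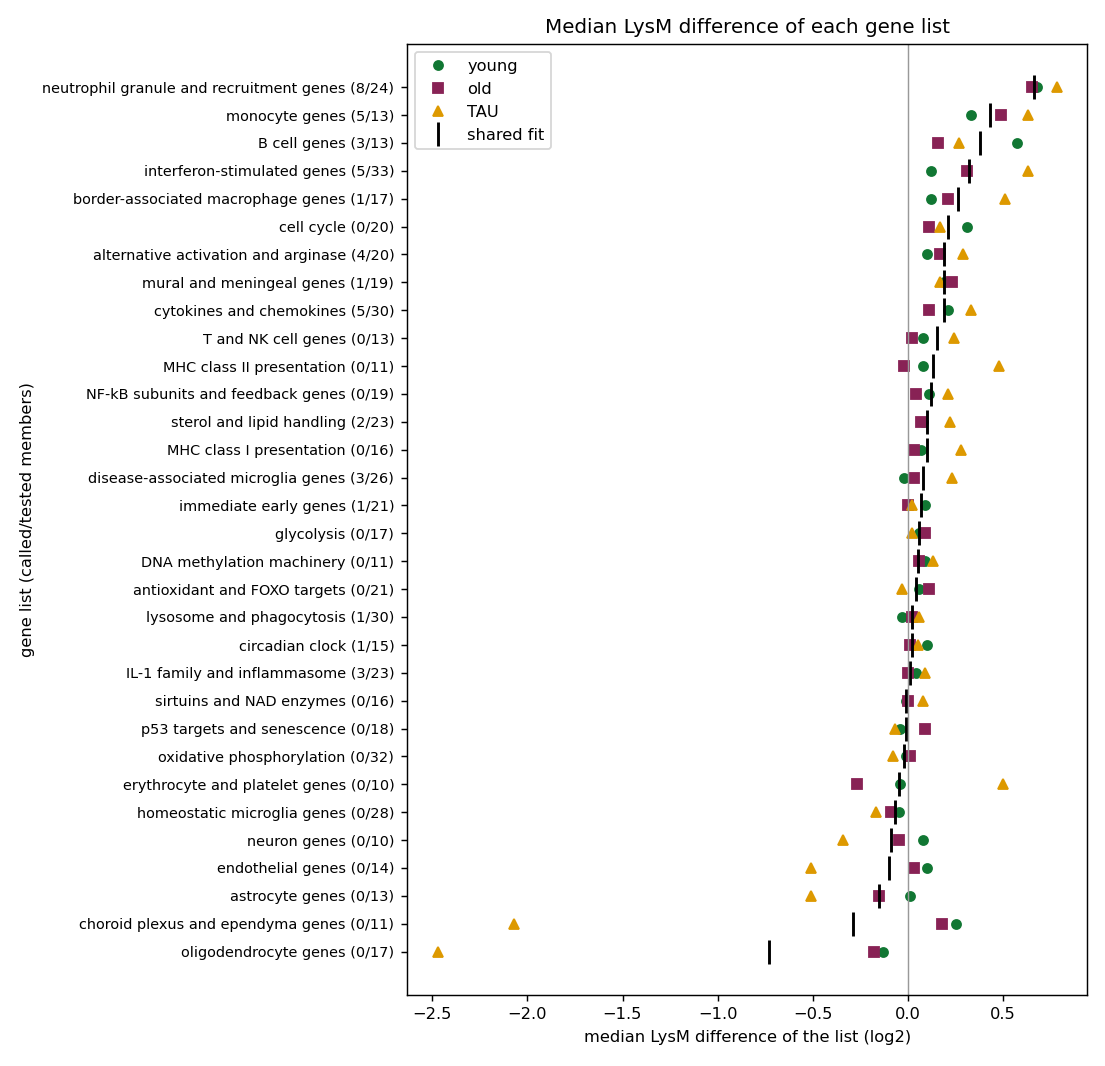
Median LysM difference (log2, horizontal axis) of the 32 gene lists in young, old and TAU samples and in the shared fit, with the number of members called and tested in parentheses on the vertical axis. The neutrophil list lies highest in the shared fit at 0.66, and the oligodendrocyte and choroid plexus lists are far below 0 in TAU samples only.

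The effect of LysM differed between backgrounds for 40 probes (0.245%), by the F test of the LysM by background terms. None of them was among the 229, which the shared fit favours because it counts such differences as spread. In all 40 the TAU difference was the farthest from 0, and in 39 it was lower in TAU/LysM than in TAU. The first 8 genes by p were Car2, Olig1, Fa2h, Mbp, Prr18, Mobp, Slain1 and Mog, most of them genes of oligodendrocytes, the myelin-forming cells. Mbp, the myelin basic protein, lay at 6.97 to 8.04 in young SIRT1F/F, 6.61 to 7.63 in young LysM-Cre, 7.16 to 7.89 in old SIRT1F/F, 6.83 to 7.32 in old LysM-Cre and 7.03 and 7.21 in TAU/LysM, against 11.50 and 11.99 in TAU. Only the TAU arrays stood apart. Its differences were -0.34, -0.53 and -4.62 in young, old and TAU samples (adjusted p of the difference between backgrounds = 0.00176), and its other probes gave shared differences of -1.38 ± 0.50 and 0.10 ± 0.06, neither called. Of 17 oligodendrocyte genes tested, 10 differed between backgrounds (0.282% of all genes did), and the list's medians were -0.13, -0.18 and -2.47. That count is partly fixed by the filter, since 4 of the 10 were above background on fewer than 2 arrays outside TAU, while 4 were above it on all 16 arrays. The mean of this list was 10.26 and 10.54 on the TAU arrays and 7.94 to 8.63 on the other 14. With it as a covariate limma called 11 of the probes of the shared fit, and the differences of the 7 probes called in every fit without an array were 2.51 and 2.94 (Lyz1), 0.89 (F10), 0.64 (Ccl24), 0.51 (Plk2), 0.39 (Kmt5a) and -0.39 (Tceal1), of which the last 2 were not called (adjusted p = 0.0709 and 0.117).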

How the data were processed

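Expression was measured on 16 one-colour Illumina mouse arrays, whose deposited table holds probe intensity per array, neither background-corrected nor normalized. The second deposited table holds log2 values; no source used here gives the authors' steps behind them, and each column matched the quantile normalized log2 of the intensities and had a median of 7.894. Per the labels' protocols, brains were digested, passed through a 70-µm filter, freed of myelin with beads and selected for CD11b on an autoMACS. The labels do not say that replicates came from separate animals. Xist or Eif2s3y was near background on some but not all arrays of young LysM-Cre, old SIRT1F/F and TAU/LysM. In these groups the arrays were thus not all repeats of the same RNA. For the other groups this is not known, so the spread behind each p-value may in part be a technical one.

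The intensities were corrected with normexp over all probes (offset 16), log2-transformed and quantile normalized in limma 3.58.1 (R 4.3.3). Control-probe correction and detection p-values were not used here. A probe counted as above background 1.645 spreads over the mode of its array's log2 intensities (upper tail 0.05), and was tested if above it on 2 of 16 arrays. This held for 54.9% to 57.5% of probes per array and left 16344 of 25697. The platform annotation gives 23978 probes 1 symbol, none several and 1719 none. limma fitted LysM with background as a block (12 residual degrees of freedom), and a fit of 6 group means gave the differences within and between backgrounds. SE stands for standard error throughout, and differences are LysM minus other arrays on the log2 scale. Lists use the brightest probe of each gene; of 752 entries in 32 lists, 604 were tested. The "at least" folds set the bright group's mean against the higher of the dimmest detected signal and the dim probe's own.

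Named are the first 18 higher and 12 lower genes by p, Sirt1, Il1b, Lyz1, Lyz2, Xist and Eif2s3y, in each list the called members and up to 3 others of smallest p, up to 10 genes by their smallest difference over the 3 backgrounds among those whose arrays separate, up to 8 by p whose effect differs between backgrounds, and up to 6 by p in each hold-out. Members, lists and promoter motifs were chosen with earlier results of these data known. The alternatives with the neutrophil level as a covariate and with the genes beside Sirt1 were chosen after the data were seen. Tested on simulated data over 16344 probes, the shared fit recovered 79 of 100 changes of 0.5 and 98 of 100 changes of 1 on the log2 scale, with 6 false calls. The simulated noise was drawn separately for each probe and array, so it held no variation shared by the probes of an array. These figures therefore do not cover the dependence of the calls on single arrays. The number of arrays limits the precision.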

Additional observations from a re-analysis of the deposited data

Results flagged for a closer look

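The effect of LysM differed between backgrounds by the F test of the LysM by background terms for 40 probes. The TAU difference minus the mean of the young and old differences was -2.48 for Car2, a carbonic anhydrase of oligodendrocytes, -2.68 for Olig1, their transcription factor, and -2.2 for Fa2h, which makes hydroxylated myelin lipids. It was -4.19 for Mbp, -2.89 for Prr18, -2.12 for Mobp, -1.25 for Slain1 and -2.38 for Mog. On these probes Fa2h, Mobp, Slain1 and Mog were above background on the 2 TAU arrays alone, so that they passed the filter only through them, which gives TAU over TAU/LysM at least 3.71-fold for Fa2h, 3.16-fold for Mobp, 1.18-fold for Slain1 and 4.52-fold for Mog. Further probes of Mobp and Mog that also differed were above background on 1 and 2 arrays outside TAU. Car2 lay at 9.81 and 9.65 on the TAU arrays and at 7.0 to 7.68 on the other 14, and Olig1 at 10.42 and 10.64 against 7.44 to 8.41. The 2 TAU arrays also had the choroid plexus list at 10.72 and 11.19, against 8.93 and 9.55 in TAU/LysM, and its part in these differences was not tested.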

How the results depend on the processing

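With all 16 arrays 183 probes were called higher, 46 lower and 229 with the same sign in all backgrounds, 40 differed between backgrounds and 36 list members were called. The deposited log2 values gave 111 lower, 374 of the same sign and 68 that differ. Median centring gave 8 higher, 1 lower, 9 of the same sign and 4 list members. Testing all probes gave 7, 1 and 8, with 26 that differ and 2 list members. Probes above background on 8 arrays gave 16 that differ, the trend and robust variance 95 lower, and 6 group means 74 lower. Array weights gave 95 higher, 130 of the same sign and 20 list members. Leaving out young samples gave 12 higher, 3 lower, 15 of the same sign and 4 list members. Leaving out old samples gave 0 of each, with 8 that differ, and leaving out TAU samples gave 6 higher, 0 lower, 6 of the same sign, 0 that differ and 2 list members. Leaving out the 5 arrays with Xist or Eif2s3y near background gave 5 higher, 0 lower, 5 of the same sign, 1 that differs and 2 list members. The oligodendrocyte level as a covariate gave 10, 1 and 11, with 0 that differ and 2 list members, and the neutrophil level, added after the data were seen, gave 0 of each and 0 list members. Unadjusted p-values under 0.05 stood at 3188 in the main fit with all 16 arrays. They stood at 2218 without old samples, 2062 without TAU samples, 2110 without the 5 arrays, 2333 with the oligodendrocyte level and 680 with the neutrophil level. Leaving out 1 array at a time gave 6 to 385 higher, 1 to 137 lower, 7 to 501 of the same sign, 5 to 76 that differ and 2 to 89 list members. The settings with fewer arrays have fewer degrees of freedom, and the neutrophil level takes up part of the LysM contrast. Otherwise the cause was not tested.

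The fit with the replicate block gave 417 higher, 286 lower, 702 of the same sign and 76 list members. Same-numbered samples correlated at 0.24 to 0.51 in young, 0.05 to 0.07 in old and 0.24 in TAU samples after removal of group means, over 0.1 in 5 of 8 pairs, so the numbers were not taken to pair the samples. Each of the 8 correlated best with its own number, a hint from the data and not the design.

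For single named genes no sign turned when 1 array was left out. Without old samples the 2 Xist probes turned to -0.69 and -0.37. Without TAU samples Car2, Sostdc1 and Dynlrb2 turned to 0.03, 0.15 and 0.12, and with the oligodendrocyte level to 0.14, 0.31 and 0.2. With the neutrophil level, Lcn2 turned to -0.01, Hp to -0.04, Ltf to -0.01, Ngp to -0.03, Camp to -0.06, Birc5 to -0.03, Gadd45a to -0.07, Chil3 to -0.15, Nadk to -0.02, Mdm2 to -0.02, Stab1 to -0.06, Mrc1 to -0.02, Il18r1 to -0.17, Fosb to -0.08 and Sirt1 to -0.04, while Gp9 turned to 0.01, Ccar1 to 0.02 and Fech to 0.11. Lcn2, Ltf, Ngp and Camp are members of the list whose mean is the neutrophil level. Their differences near 0 in that fit are therefore largely fixed by the covariate. Dim probes have only a bound, and differences of probes near the top of the scale, as of Il1b, can be compressed, which was not tested.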

Other observations

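Some called genes outside the lists are named here, picked after their values were seen. No list stands behind them, so they say nothing of a group. Cebpe, the factor of late granulocyte development, differed by 0.82 ± 0.19 (SE, limma adjusted p = 0.0471), Ms4a3, a gene of granulocyte and monocyte progenitors, by 0.65 ± 0.13, and Cstdc4, a stefin-like gene, by 1.09 ± 0.23. Prg2 and Prg3, the major basic proteins of eosinophils, differed by 0.87 ± 0.20 and 0.85 ± 0.19, and Hdc, which makes histamine, by 0.85 ± 0.17. Trem1, a receptor that amplifies myeloid inflammation, differed by 0.85 ± 0.18. Each was called in 3 of the 16 fits that left out an array.

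The triglyceride-forming enzymes Dgat1 (0.65 ± 0.15) and Dgat2 (0.71 ± 0.15) were also called higher. So were H2ac24 (0.46 ± 0.10), H2ac20 (0.42 ± 0.09) and H2ac21 (0.54 ± 0.12), which encode histone H2A, and the chaperone genes Hsph1 (0.75 ± 0.17) and Ahsa2 (0.49 ± 0.11). These genes were called in 2 to 4 of the 16 fits.

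Of the 20 genes on each side of Sirt1 in the RefSeq gene order, looked at after the data were seen, 7 had a tested probe. Slc25a16 was the 1 member called (-0.32 ± 0.05; 0.246% of all genes were called lower), and Hnrnph3 differed by -0.31 ± 0.14 (limma adjusted p = 0.237).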
